A study of Mus musculus with 2 samples.

Results

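The NF-kB subunits and their inhibitors were described across endothelial cells isolated from mice treated with GFP or with NeuroD1. The 9 genes were chosen by symbol, for what they encode, out of 53465 genes in the deposited table, and each symbol matched exactly 1 row. They are the subunit genes Rela, Relb, Rel, Nfkb1 and Nfkb2, the IkB genes Nfkbia, Nfkbie and Nfkbiz, and Tnfaip3, a feedback inhibitor. Mice of both groups were C57Bl/6 animals with the tie2-cre genotype, in which a Tie2 promoter drives Cre recombinase. That promoter is known to be active in endothelial cells and also in blood cell lineages. By the protocol in the labels, endothelial cells came from 3 mice, lysates held 10000 cells, and RNA was tagged with primers of DRUG-seq, a barcoded library method. Whether the 3 mice stand for each group or for both is not stated, and the labels name no vector, dose, interval after treatment or age. There was 1 library per group, so no difference below has a replicate check and no test between the groups was possible.

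NF-kB is a family of dimeric transcription factors built from 5 related subunits. In resting cells IkB proteins hold the dimers in the cytoplasm. Signals from TNF, interleukin and Toll-like receptors activate the IKK kinase, which marks IkB for destruction and lets the dimers enter the nucleus, where they bind kB sites. Endothelial cells use the pathway to switch on adhesion molecules and chemokines that recruit leukocytes. The genes of several inhibitors and subunits are themselves NF-kB targets, which closes feedback loops.

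Promoter stretches with matches to the motif of kB sites are shown first. RefSeq promoter windows on GRCm38.p6, from 250 bases before to 50 bases after each annotated start, were found by symbol for 6 of the 9 genes, namely Nfkbia, Tnfaip3, Nfkb2, Rel, Nfkbie and Rela, with 3 starts for Nfkb2 and 2 for Tnfaip3. Both strands were searched for the kB consensus, a degenerate motif of 10 bases. It occurred in at least 1 window of 5 of the 6 genes, all but Rela, and in 5.14% of all 27025 genes with a window. Over windows, the counts were 7 of 9 for these genes and 4.51% of all 32851. A match describes letters and does not show that a site is bound. The 250 bases before the Nfkbia start and stretches of 30 bases for the others follow, 5′ to 3′ on the gene's strand, with the match in capitals.
Nfkbia, inhibitor, chr12:55492648-55492897, minus strand: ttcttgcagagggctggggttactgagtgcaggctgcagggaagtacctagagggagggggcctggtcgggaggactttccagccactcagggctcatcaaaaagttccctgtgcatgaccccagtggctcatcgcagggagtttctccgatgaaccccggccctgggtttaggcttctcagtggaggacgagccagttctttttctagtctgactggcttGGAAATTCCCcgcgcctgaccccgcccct
Tnfaip3, inhibitor, chr10:19015403-19015432, minus strand: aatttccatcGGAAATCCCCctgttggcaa
Nfkbie, inhibitor, chr17:45555584-45555613, plus strand: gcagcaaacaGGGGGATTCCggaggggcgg
Nfkb2, subunit, chr19:46304688-46304717, plus strand: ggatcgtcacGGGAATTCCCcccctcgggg
Nfkb2, subunit, chr19:46305695-46305724, plus strand: tggtattttcGGGACTTTCCtaagcagcac
Rel, subunit, chr11:23771042-23771071, minus strand: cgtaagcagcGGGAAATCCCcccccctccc
In the first Nfkb2 stretch and in Rel a second match overlapped the capitals, shifted by 1 base. The first Nfkb2 window held a further match 11 bases before its start, and the Tnfaip3 window held another 125 bases before its start. The second Nfkb2 window also held a match 236 bases before its start, which is not shown. The Nfkbia and Tnfaip3 matches shown began 29 and 12 bases before the start, and those of Nfkbie and Rel 106 and 92 bases before it. The second Nfkb2 stretch lies in 2 overlapping windows, 10 bases after one start and 225 bases before the next.

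**Figure D1:**
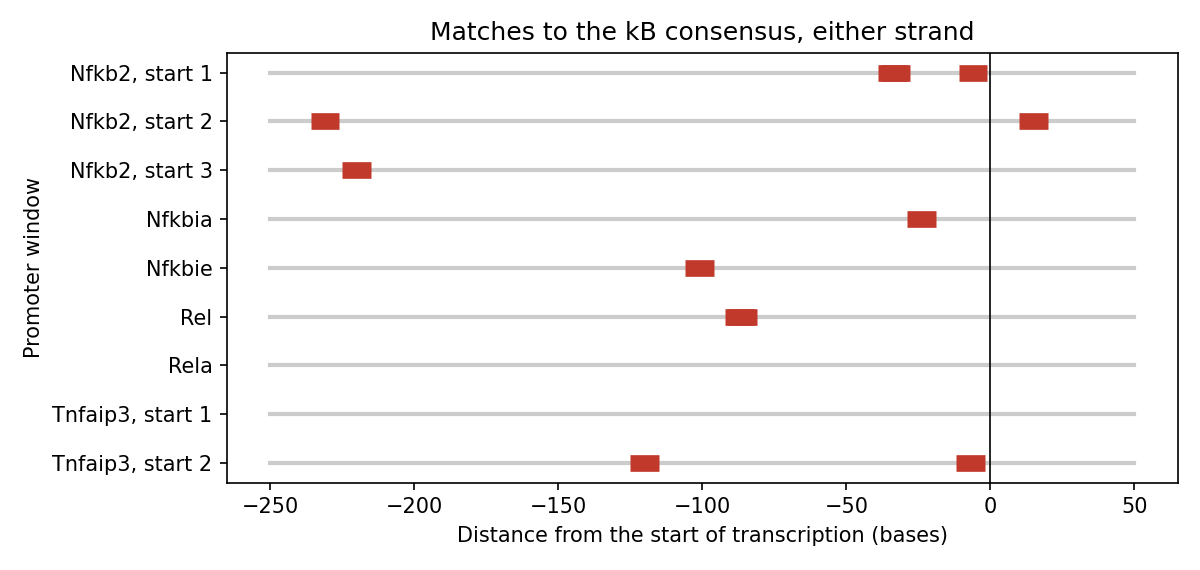
Matches to the kB consensus on either strand (red blocks) in the 9 RefSeq promoter windows (grey lines) of 6 genes, by distance in bases from the start of transcription, which stands at 0. Blocks stand in 7 windows, and the Rela window and 1 of the 2 Tnfaip3 windows hold none.

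Depth sets what these values can show. Whole reads recovered from the table numbered 2011130 (GFP) and 2001426 (NeuroD1). Of these, 958799 and 851964 lay outside 19 genes above 1000 FPKM (fragments per length of exon, on a scale set per library). A read was worth 453 (GFP) and 513 (NeuroD1) in FPKM times bases of exon, though the recovered reads were nearly equal. The deposited scale thus did not follow the recovered reads of each library. The 9 genes together held 635 and 490 reads, or 29 to 124 reads per gene in GFP and 27 to 97 in NeuroD1. Neurod1 stood at 0.664 FPKM with GFP and 182 FPKM with NeuroD1, as the labels have it. Of the endothelial markers, the glucose transporter gene Slc2a1 stood at 33.4 and 36.0 FPKM and the tight junction gene Cldn5 at 33.9 and 31.5 FPKM. For Rela, Nfkb2 and Nfkbie the reads rest on an exon length solved from both values, since the annotated length gave no whole reads. Chemoreceptor genes, which endothelial cells are not known to use, had a 95th percentile of 4.39 FPKM with GFP and 4.79 FPKM with NeuroD1. Nfkb1 and Tnfaip3 lay below it in both libraries and Nfkb2 in NeuroD1 only, so their levels are within the range of such genes. Reads at the chemoreceptor medians of 1.54 and 1.404 FPKM were worked out on the assumption that reads follow exon length. A gene as long as Nfkb1 would then hold 41.1 and 33.0 of its 96 and 68 reads. A gene as long as Nfkbia would hold 5.49 and 4.41 of its 68 and 45.

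By FPKM, Nfkbia was the highest of the 9 genes in both libraries and Relb the next, while Nfkb1 and Tnfaip3 were the lowest. By reads the order was another. Rel had 124 and 97 reads, Nfkb1 96 and 68, and Nfkbia 68 and 45, on 7466, 12061 and 1610 bases of exon. The order by FPKM thus rests in part on division by exon length. Levels are FPKM, which are scaled by exon length, with exact Poisson 95% intervals of the reads, and cover counting error only. In GFP the order was Nfkbia, Relb, Nfkbiz, Rel, Rela, Nfkb2, Nfkbie, Tnfaip3 and Nfkb1, from 19.1 to 3.60 FPKM. In NeuroD1 it was Nfkbia, Relb, Nfkbiz, Rela, Rel, Nfkbie, Nfkb2, Nfkb1 and Tnfaip3, from 14.3 to 2.55 FPKM. Of the 8 pairs of neighbours in each order, 1 differed in FPKM beyond counting error of reads. In GFP this was Nfkbia over Relb (ratio of FPKM 1.84, interval 1.32 to 2.56). By reads that pair was reversed, with 68 for Nfkbia and 89 for Relb. In NeuroD1 it was Relb over Nfkbiz (ratio 1.42, interval 1.02 to 1.99), with 78 and 71 reads. Division by exon length assumes reads from the whole of that length, which was not tested. The places that changed between the 2 orders were those of neighbours whose intervals overlapped.

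**Figure D2:**
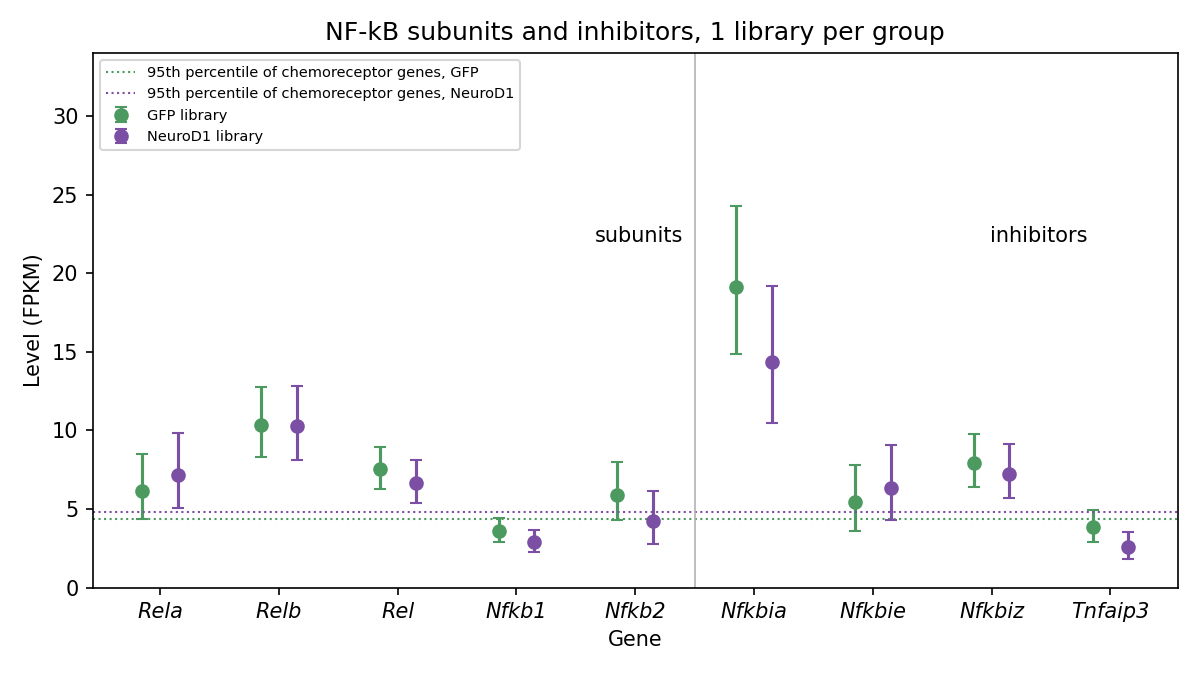
Level in FPKM of the 5 subunit genes (left) and 4 inhibitor genes (right) with GFP (green) and with NeuroD1 (purple), 1 library per group, with exact Poisson 95% intervals as bars and the 95th percentile of chemoreceptor genes as dotted lines. The bars of the 2 libraries overlap for each gene, and Nfkbia is highest in both.

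No gene of the 9 differed by 2-fold between the libraries, and with FPKM as deposited no ratio had a 95% interval that left out 1. The second statement depends on how the libraries are scaled, as given below. A gene was counted as higher or lower when it had at least 5 FPKM in one library or both and a difference of at least 1 in log2(FPKM + 1), NeuroD1 minus GFP. The count was 0 of the 7 genes past that minimum, with Nfkb1 and Tnfaip3 below it. The background was 6.55% of 6408 protein-coding genes and 28.5% of all 14679 genes past the minimum, so a count of 0 among 7 is near the protein-coding background. Intervals of a ratio are exact Clopper-Pearson 95% intervals on the recovered reads. They left out 1 for 0 of 9 genes, against 12.1% of the 14791 protein-coding genes that had at least 20 reads. When the 2 libraries were brought to equal summed FPKM, a factor of 0.849 on NeuroD1, 5 of 9 intervals lay below 1, those of Rel, Nfkb1, Nfkb2, Nfkbia and Tnfaip3, against 16% of the same protein-coding genes. The upper limits ran from 0.871 for Tnfaip3 to 0.9997 for Nfkb2. The shares of 12.1% and 16% were not matched in reads, and an interval leaves out 1 more easily with more reads. The 9 genes held 59 to 221 reads over both libraries. Protein-coding genes with recovered reads had medians of 24 reads in GFP and 20 in NeuroD1. The counts of the 9 genes and these shares are thus not like for like. The 19 genes above 1000 FPKM held 77.3% of summed FPKM in GFP and 80.8% in NeuroD1. With equal sums over the other genes the factor was 1, which nearly repeats the deposited values, and the count was 0 of 9. Both of these counts were added after seeing the data. As deposited, for 6 of the 9 genes, namely Rela, Relb, Rel, Nfkb1, Nfkbia and Nfkbiz, the interval lay between 0.5 and 2. For these a 2-fold difference was outside counting error of reads. For Nfkb2, Nfkbie and Tnfaip3 the interval reached past 2-fold on 1 side. All these intervals are too narrow if reads repeat molecules. The spread between mice was not measured.

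Among the subunits, the genes whose proteins carry an activation domain lay closest to 1. Rela, the subunit of the classical dimer that drives transcription (ENSMUSG00000024927, GRCm38 chromosome 19, 5637483 to 5648130, plus strand), stood at 6.17 FPKM with GFP and 7.17 FPKM with NeuroD1. This is a ratio of 1.16 (interval 0.720 to 1.88). Relb, the partner of the alternative pathway (ENSMUSG00000002983, chromosome 7, 19606217 to 19629438, minus strand), stood at 10.4 and 10.3 FPKM, a ratio of 0.993 (interval 0.723 to 1.36). Rel, best known from lymphoid cells (ENSMUSG00000020275, chromosome 11, 23736847 to 23770970, minus strand), had the most reads of the 9 genes. It stood at 7.52 and 6.66 FPKM, a ratio of 0.886 (interval 0.672 to 1.17). Rela was thus the one subunit gene with the higher value in NeuroD1, Relb had nearly the same value in both, and the intervals of all 5 subunit ratios overlapped.

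The precursor subunits had the lower value in NeuroD1, as did Rel and, barely, Relb. Nfkb1, whose product is processed to the DNA-binding partner of RelA (ENSMUSG00000028163, chromosome 3, 135584655 to 135691547, minus strand), stood at 3.60 FPKM with GFP and 2.89 FPKM with NeuroD1, a ratio of 0.802 (interval 0.579 to 1.11). Nfkb2, whose product is processed to the partner of RelB (ENSMUSG00000025225, chromosome 19, 46304320 to 46312385, plus strand), stood at 5.92 and 4.21 FPKM, a ratio of 0.711 (interval 0.423 to 1.18). It has the lowest ratio of the subunits, on 43 and 27 reads. Its exons overlap the opposite-strand gene Psd, at 3.38 and 2.75 FPKM, and AC114539.1, and strand-specific counting is not stated, so reads of these genes cannot be told apart. Neither interval left out 1 with FPKM as deposited.

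Of the inhibitors, Nfkbia, Tnfaip3 and Nfkbiz had the lower value in NeuroD1, and Nfkbie the higher. Nfkbia, which encodes the IkB protein that is lost and made again within a single response (ENSMUSG00000021025, chromosome 12, 55489410 to 55492647, minus strand), had a level of 19.1 FPKM with GFP and 14.3 FPKM with NeuroD1. This is a ratio of 0.750 (interval 0.503 to 1.11). Tnfaip3, a ubiquitin-editing enzyme that ends signalling from TNF receptors (ENSMUSG00000019850, chromosome 10, 19000910 to 19015657, minus strand), stood at 3.82 and 2.55 FPKM, a ratio of 0.668 (interval 0.430 to 1.03). That is the lowest ratio of the 9 genes and the interval that came closest to leaving out 1. Nfkbia, Tnfaip3 and the first start of Nfkb2 had kB matches close to the start, while those of Nfkbie and Rel lay further away. Tnfaip3 also had a match 125 bases before its start, and Nfkb2 had a match 236 bases before its second start. Any link of the matches to the ratios was not tested.

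Nfkbie and Nfkbiz lay on either side of 1. Nfkbie, a further cytoplasmic IkB (ENSMUSG00000023947, chromosome 17, 45555703 to 45563169, plus strand), stood at 5.42 FPKM with GFP and 6.35 FPKM with NeuroD1, a ratio of 1.17 (interval 0.680 to 2.02), on 29 and 30 reads. Nfkbiz, an atypical IkB that acts in the nucleus (ENSMUSG00000035356, chromosome 16, 55811375 to 55838899, minus strand), stood at 7.94 and 7.25 FPKM, a ratio of 0.914 (interval 0.659 to 1.26). The level of Nfkbia over that of Rela, which does not depend on how the libraries were scaled, was 3.10 in GFP and 1.998 in NeuroD1. The second over the first was 0.646 (exact conditional interval 0.343 to 1.21), and this pair was chosen after its values were seen. In bulk libraries such as these, fewer cells of a type and less RNA per cell cannot be told apart.

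**Figure D3:**
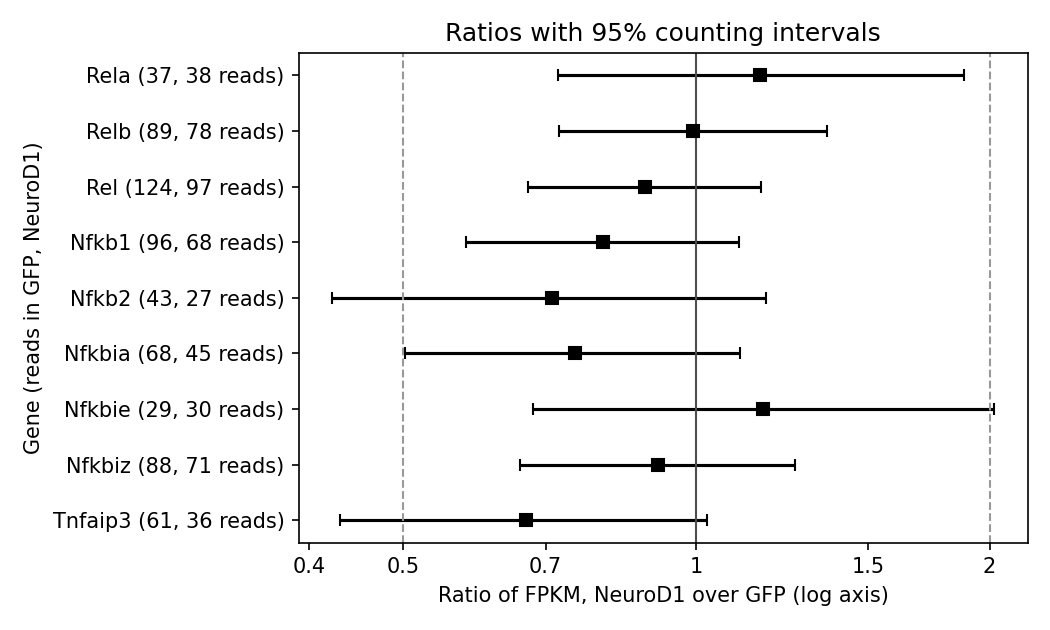
Ratio of FPKM, NeuroD1 over GFP, on a log axis for the 9 genes, with exact Clopper-Pearson 95% intervals from the reads given beside each symbol. With FPKM as deposited each bar crosses the solid line at 1, and those of Nfkb2, Tnfaip3 and Nfkbie cross a dashed line at 0.5 or 2.

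Of the 9 genes, 7 had the lower value in NeuroD1, all but Rela and Nfkbie, with differences in log2(FPKM + 1) from -0.44 for Tnfaip3 to 0.20 for Nfkbie. Of 20697 protein-coding genes with at least 1 FPKM in one library or both, 51.6% had the lower value in NeuroD1. The median difference was -0.15 over the 9 genes, -0.15 over the 5 subunits and -0.25 over the 4 inhibitors, against -0.02 over those protein-coding genes. Tnfaip3, Nfkb2 and Nfkbia lay low in the distribution of all protein-coding genes, with 17.5%, 19.1% and 19.9% of genes at or below their difference, and Nfkb1 followed at 29.6%. Rela and Nfkbie had 70.1% and 70.5% at or below theirs. The differences of protein-coding genes depended on level, with a median of -0.03 for genes with a mean of 2 to 5 FPKM, 0.03 for 5 to 10 FPKM and 0.12 for 10 to 20 FPKM. In the last of these ranges, which holds Nfkbia and Relb, 34.8% of 557 genes had the lower value in NeuroD1. With equal summed FPKM, the median of protein-coding genes moved to -0.19 and that of the 9 genes to -0.36, and all 9 had the lower value, with Rela at -0.015 and Nfkbie at -0.0064. Relative to the protein-coding median, the 9 genes lay at -0.14 as deposited and -0.16 after that scaling.

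The rest of the pathway was followed in lists of 71 further genes, all with at least 1 FPKM in one library or both. Of these, 38 had the higher and 33 the lower value in NeuroD1, with a median difference of 0.07, and 1 was 2-fold higher and 1 was 2-fold lower among 32 past 5 FPKM. With equal summed FPKM the majority turned, to 27 higher and 44 lower with a median of -0.13. The other IkB genes had values on both sides of equal, with a median of 0.08 as deposited and -0.12 with equal summed FPKM. Nfkbib, a cytoplasmic IkB, stood at 7.305 FPKM with GFP and 9.46 FPKM with NeuroD1 (ratio interval 0.802 to 2.10), and Bcl3, a nuclear IkB that binds the products of the precursor genes, at 6.40 and 6.84 FPKM (interval 0.643 to 1.77). Nfkbid, also nuclear, stood at 5.21 and 4.15 FPKM (interval 0.419 to 1.49). In the IKK group, 2 of 4 genes had the lower value in NeuroD1. The median of this group was -0.0024 as deposited and -0.17 with equal summed FPKM. The kinase gene Chuk stood at 5.16 and 4.44 FPKM (interval 0.567 to 1.29), and Map3k14, the kinase that starts the alternative pathway, at 4.98 and 3.37 FPKM (ratio 0.676). Its interval ran from 0.453 to just above 1. Ikbkb, the main kinase of the classical pathway, stood at 3.44 and 4.19 FPKM (interval 0.966 to 1.54).

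Upstream of the kinase, 15 of 26 receptor and adaptor genes had the higher value in NeuroD1, with a median difference of 0.07, and none reached a difference of 1 in log2(FPKM + 1). With equal summed FPKM 10 of 26 were higher and the median was -0.11. Of 24 with at least 20 reads, 4 had an interval above 1 and 0 below it, against 5.93% and 6.22% of protein-coding genes. These were Birc2, a ubiquitin ligase, at 9.59 FPKM with GFP and 12.9 FPKM with NeuroD1 (interval 1.02 to 1.78), and Tab2, an adaptor of the kinase above IKK, at 8.49 and 11.2 FPKM (interval 1.02 to 1.71). The other two, named after their values were seen, were the TNF receptor gene Tnfrsf1b, at 2.37 and 5.103 FPKM (ratio 2.15, interval 1.22 to 3.90), and Tradd, the adaptor of the other TNF receptor, at 2.67 and 6.32 FPKM (ratio 2.37, interval 1.11 to 5.38). These plain ratios are above 2, and the genes miss the threshold because 1 FPKM is added before the logarithm. The gene of that other receptor, Tnfrsf1a, stood at 5.94 and 3.56 FPKM (ratio 0.5996, interval 0.319 to 1.09), on the opposite side of equal. With equal summed FPKM, of the 4 only Tnfrsf1b kept an interval above 1 (1.04 to 3.31), and the lower limits of Tradd, Tab2 and Birc2 were 0.942, 0.867 and 0.863. Of protein-coding genes, 1.7% lay above 1 and 16% below it at that scaling. None of these protein-coding shares was matched in reads to the list. Intervals at that scaling were taken only for these 4 genes of the list. Others that would newly fall below 1, Tnfrsf1a among them, were not counted. Tab1, whose reads were not recovered, stood at 8.80 and 7.35 FPKM. Among 14 other negative regulators, 9 had the lower value in NeuroD1, with a median of -0.09. With equal summed FPKM 3 were higher and 11 lower, with a median of -0.27. Otud7b, a deubiquitinase related to Tnfaip3, was the only gene of the 14 whose interval left out 1 as deposited. It stood at 9.07 and 6.42 FPKM (ratio 0.708, interval 0.556 to 0.898). Tnip1, which binds the Tnfaip3 protein, stood at 6.52 and 7.97 FPKM (interval 0.819 to 1.82), and the ligase gene Itch at 5.83 and 7.02 FPKM (interval 0.937 to 1.55).

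Downstream, 24 genes known as NF-kB targets in endothelial or other cells had values on both sides, 14 higher and 10 lower in NeuroD1, with a median of 0.09. With equal summed FPKM they were 11 higher and 13 lower, with a median of -0.12. Of 20 with at least 20 reads, 3 had an interval above 1 and 5 below it, against 5.93% and 6.22% of protein-coding genes. Those above were Ccl2, a monocyte chemokine, at 304 FPKM with GFP and 343 FPKM with NeuroD1 (ratio 1.13, interval 1.02 to 1.25), Bcl2l1, a survival factor, at 4.54 and 8.05 FPKM (ratio 1.77, interval 1.21 to 2.63), and the cytokine gene Il1b, which was 2-fold higher. Those below were the leukocyte adhesion molecules Icam1 and Vcam1, the cytokine gene Il6, the neutrophil chemokine gene Cxcl1, and the growth factor gene Csf3, which was 2-fold lower. Vcam1 stood at 4.80 and 3.12 FPKM (ratio 0.651, interval 0.457 to 0.919) on 94 and 54 reads, and Cxcl1 at 4.10 and 1.37 FPKM (ratio 0.333, interval 0.0961 to 0.941) on 17 and 5 reads. Il1b had 2.14 and 7.26 FPKM, Csf3 9.61 and 3.63 FPKM, Il6 5.97 and 2.96 FPKM, and Icam1 7.79 and 4.70 FPKM. Cxcl1 lay below the 95th percentile of chemoreceptor genes (4.39 and 4.79 FPKM) in both libraries. Vcam1, Il6, Csf3 and Icam1 lay below it in NeuroD1 only, and Il1b in GFP only. With equal summed FPKM the ratio of Ccl2 turned to 0.958 (interval 0.865 to 1.06), while the other 7 intervals stayed on their side of 1. Target genes that would newly leave out 1 at that scaling were not counted. The protein-coding shares were not matched in reads to the target genes. Apart from Il1b and Csf3, the genes with intervals above or below 1 were named after their values were seen. Ccl5, Cxcl1 and Cxcl2 passed a difference of 1 in either direction but stayed under 5 FPKM in both libraries, so they were not counted. Many of the 24 genes are also known to respond to other pathways.

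**Figure D4:**
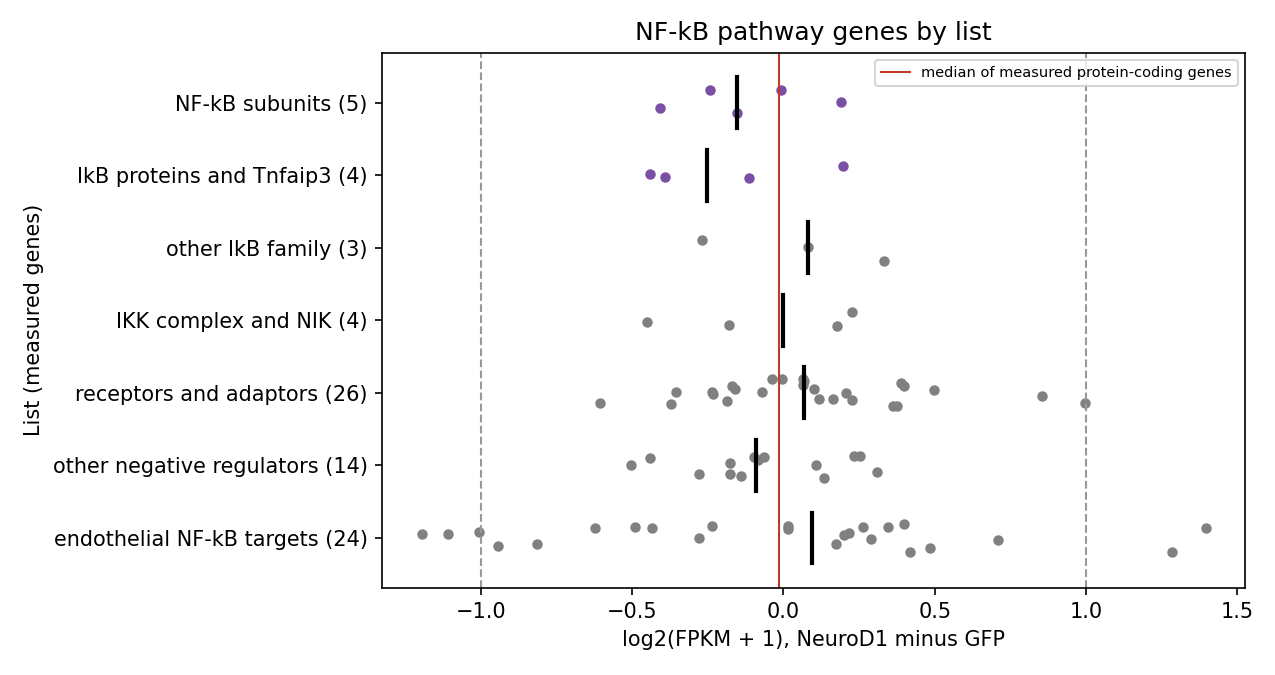
Difference in log2(FPKM + 1), NeuroD1 minus GFP, of each measured gene of the 7 pathway lists (dots, purple for the 9 genes), with list medians (black bars) and the median of measured protein-coding genes (red line). The 9 genes lie between -0.44 and 0.20, inside the dashed lines at -1 and 1, while the target genes spread widest.

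Leukocytes use NF-kB as well, and their markers were measured beside these genes. Microglia and macrophage markers summed to 67.9 FPKM with GFP and 58.8 FPKM with NeuroD1 over 16 genes, of which 12 had the lower value in NeuroD1. The highest by the mean of both libraries were Tyrobp, a signalling adaptor, at 11.5 and 17.7 FPKM, and Cd68, a lysosomal protein, at 9.004 and 4.89 FPKM. Neutrophil markers summed to 80.9 and 81.7 FPKM over 12 genes, of which 7 had the lower value in NeuroD1. The highest by the mean of both libraries were Ngp, a granule protein, at 19.3 and 21.8 FPKM, and S100a9 at 10.4 and 20.6 FPKM. Past 2-fold, 1 of the 12 was higher and 2 were lower. Lower were S100a8, the partner of S100a9, at 7.83 and 2.96 FPKM (interval 0.0887 to 1.25), and the protease gene Elane at 11.96 and 1.56 FPKM (ratio 0.131, interval 0.0253 to 0.426). Higher was Retnlg at 3.72 and 10.96 FPKM (interval 0.985 to 10.6). S100a8, Elane and Retnlg were named after their values were seen. Lymphocyte and natural killer cell markers summed to 58.3 and 57.5 FPKM over 15 genes. No marker of these 3 lists, nor of the endothelial, mural, astrocyte, neuron and oligodendrocyte lists, was at 0 in either library. Values above 0 thus do not set leukocyte markers apart. The defining microglial genes P2ry12 and Tmem119 stood at 1.07 and 1.41 FPKM and at 2.15 and 1.99 FPKM, within the range of chemoreceptor genes. Endothelial markers summed to 190 FPKM with GFP and 205 FPKM with NeuroD1 over 14 genes, of which 9 had the higher value in NeuroD1. The part of any of these cells in the levels of the 9 genes was not tested.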

How the data were processed

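RNA of 1 GFP and 1 NeuroD1 library was profiled. The authors deposited FPKM for 53465 genes. GRCm38, Bowtie2 (2.3.5.1), DESeq (no version) and featureCounts (1.6.3) appear in the submitters' processing notes. Filters, strand and the handling of molecular identifiers were not stated. The 9 genes and all lists were chosen with earlier results of these data known.

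FPKM times merged exon length (GENCODE M21, GRCm38) was a whole multiple of 1 step per library for 51162 genes (95.7%, within 0.02 reads), which gave their reads. For Rela, Nfkb2 and Nfkbie it was not. Their reads came from the only whole exon length between 0.6 and 1.4 times the annotated one that gave whole reads in both libraries (2716, 3289 and 2422 bases), a step added after seeing the data. On 168 list genes with known reads, it found 1 solution for 155 and the same reads for 154. Recovery and intervals were tested on simulated data. Intervals cover counting error of reads only. Where reads repeat molecules, the intervals are too narrow for molecules.

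Differences are log2(FPKM + 1), which understates low genes. The rule named all 9 genes, pathway genes past 2-fold or otherwise the 3 highest per list, up to 2 markers per list, and Neurod1; no gene is named for a like pattern, since 2 libraries give 1 difference per gene. Marker lists whose sums are not given above were mural (40.3 and 35.2 FPKM summed in GFP and NeuroD1), astrocyte (28.7 and 28.3), neuron (59.2 and 74.2) and oligodendrocyte lineage (35.5 and 37.04). In the neuron list 9 of 13 genes had the higher value in NeuroD1 and 4 the lower, and Rbfox3 stood at 26.8 and 31.0 FPKM. Of 2 rows named Itgam the higher was used. Alternatives were other pseudocounts, minimums, scalings, thresholds and background subtraction. Software was Python 3.11.15, matplotlib 3.10.9, pandas 2.3.3, scipy 1.17.1 and numpy 2.4.6.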

Additional observations from a re-analysis of the deposited data

How the results depend on the processing

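No paired analysis was possible because there is a single library per treatment, and for the same reason none was left out in turn. The counts of the 9 genes past 2-fold, 0 higher and 0 lower, were 0 under all 7 alternatives run for them, the 1.5-fold threshold included. The count of intervals that left out 1, 0 of 9, was 5, all below 1, with the same sum of FPKM, and 0 under 5 other alternatives. Of those alternatives, a 99% interval and the genes with annotated lengths only could not give more than 0. The median of ratios and the sum without genes above 1000 FPKM barely moved the scale, so none of these tests the 0. Chosen after seeing the data, for this count, were the same sum of FPKM, that sum without genes above 1000 FPKM, and the genes with annotated lengths only. Double the solved lengths and reads was also chosen then, and gave an Nfkb2 interval of 0.496 to 1.01. Under 5 alternatives, all 45 differences of the 9 genes moved by no more than the shorter arm of the gene's own counting interval. A change of scale is not counting error, and these arms are wide, so this is no check of the scaling. Of the 45 differences, 3 changed sign. These were Rela (-0.015) and Nfkbie (-0.0064) with the same sum of FPKM, and Relb (0.0091) with the chemoreceptor median subtracted. With the same sum of FPKM, the median of the 9 genes was -0.36 and that of the 71 other pathway genes -0.13, a scaling that lowers all genes alike. Counts over all genes, 1887 higher and 2295 lower, became 1061 and 1387 when 5 FPKM was added before the logarithm, 4343 and 6195 without a minimum, 237 and 164 with the minimum in both libraries, 3170 and 3488 at 1.5-fold, and 208 and 212 for protein-coding genes. Fewer or more genes pass by construction in these settings. Depth limits the result most for Nfkbie and Nfkb2, with 59 and 70 reads over both libraries.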
